A study of Homo sapiens with 12 samples.

Results

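The 10 enzyme genes described here build gangliosides, the sialic acid-bearing glycolipids of the cell surface. They were chosen by name, as the genes of the route from ceramide to the gangliosides GM3, GD3, GM2 and GD2 and their extensions, with earlier results of these data known. All 10 were found by gene symbol in both count tables, among 31911 genes with counts in the siCHD4 table and 33154 in the siCHD3 table. RNA-seq was performed on the human melanoma cell line 501Mel, 72 h after transfection of ON-TARGETplus siRNA pools. The 4 groups of 3 libraries were cells silenced for CHD4 (siCHD4 replicates 1 to 3) with their control-siRNA cells (siCtrl replicates 1 to 3), and cells silenced for CHD3 (siCHD3 replicates 1 to 3) with other control-siRNA cells (siCtrl replicates 4 to 6). CHD4 and CHD3 are ATP-dependent helicase subunits of the nucleosome remodelling and deacetylation complex NuRD. Comparisons were made within a table, silenced against siCtrl libraries, and no library is in both tables. Every group was untreated apart from the siRNA, the cells came from a single line, and the labels do not say whether replicates were separate cultures, so errors measure only the spread between these libraries.

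Gangliosides are made in the Golgi by adding sugars to ceramide in a fixed order. Glucose and then galactose give lactosylceramide, a sialic acid turns this into GM3, and another sialic acid turns GM3 into GD3. B4GALNT1 adds N-acetylgalactosamine to GM3 or GD3, which gives GM2 or GD2, and later enzymes extend these further. Normal melanocytes carry mainly GM3, and GD3 and GD2 are well-known surface antigens of human melanoma.

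Total counts per library were 44966728 to 102005319 for siCHD4 with its siCtrl, and 38573214 to 57219281 for siCHD3 with its siCtrl. Levels are given as CPM, reads relative to the library total after TMM scaling, which corrects for library composition. The targeted genes followed the labels. CHD4 was 567, 488 and 591 CPM in siCtrl and 79.6, 58.6 and 63.2 CPM in siCHD4 (fitted log2 fold change −3.03 ± 0.22 SE, edgeR adjusted p = 0.000724), and CHD3 was 77.3, 95.4 and 96.3 CPM in siCtrl replicates 4 to 6 and 18.9, 18.1 and 17.7 CPM in siCHD3 (−2.30 ± 0.15, edgeR adjusted p = 2.75e-06). CHD4 was higher by 0.77 ± 0.13 after siCHD3 (edgeR adjusted p = 0.00132), below the fold threshold. CHD3 was higher in every siCHD4 library than in every siCtrl library of that table, by 0.44 ± 0.20 (edgeR adjusted p = 0.259). Without siCtrl replicate 3 this was 0.60 ± 0.13 (edgeR adjusted p = 0.0034), also below the fold threshold. All 8 melanocytic markers fixed for the check had counts. Their summed level was 20267 to 21468 CPM in siCHD4 against 15116 to 19921 CPM in its siCtrl libraries, without overlap. Around siCHD3 it was 13038 to 17268 CPM against 13796 to 14451 CPM in siCtrl, overlapping groups. After siCHD4 the fitted log2 fold changes were 1.09 for DCT, 0.69 for TYRP1, 0.67 for MLANA and −0.83 for SOX10, none of them called. Those of MITF, TYR, S100B and PMEL were 0.11, 0.19, 0.12 and 0.0046. siCtrl replicate 3 stood apart from siCtrl replicates 1 and 2, with the lowest TMM factor, 0.816 against up to 1.07 for the others of its table, so the fitted siCHD4 changes of the enzymes are given with and without it. The summed level of 7 fibroblast markers was 18.8 to 31.5 CPM in siCHD3 against 12.97 to 14.2 CPM in its siCtrl libraries, without overlap, none of the 7 being at 0 in either group. Most of it was LUM, at 21.8 CPM on average in siCHD3 and 10.5 CPM in siCtrl, which was called higher (1.05, edgeR adjusted p = 0.00273). COL1A1 (1.65 against 2.36 CPM), COL1A2, COL3A1 and PDGFRB (0.0511 against 0.226 CPM) were on average lower in siCHD3, and DCN and PDGFRA higher. In the siCHD4 table the fibroblast sum was 8.88 to 9.44 CPM in siCHD4 and 7.14 to 10.2 CPM in siCtrl, overlapping groups. PDGFRB was called higher after siCHD4, at 0.826 against 0.272 CPM on average (log2 fold change 1.65, edgeR adjusted p = 0.0238). Of 5 keratinocyte markers KRT10 held nearly all reads, with sums of 11.8 to 16.9 CPM in siCHD4 and 15.1 to 23.0 CPM in its siCtrl, and 27.5 to 35.6 and 26.9 to 44.5 CPM around siCHD3, overlapping in both tables, and KRT14 was at 0 in all groups but siCtrl replicates 4 to 6. The part of these marker levels in the enzyme values was not tested. In bulk libraries, fewer cells of a type and less RNA per cell cannot be told apart.

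The upstream windows of UGCG, B4GALT5, ST3GAL5 and ST8SIA1 are shown because these genes stand in order along the start of the route and the last of them differed in direction between the silencings. Each is the 250 bases before the RefSeq start (GRCh38.p14), 5′ to 3′ on the gene's strand, with the GC box GGGCGG or its reverse complement in capitals. Of the 10 enzymes, 5 matched a window of the RefSeq table.
UGCG: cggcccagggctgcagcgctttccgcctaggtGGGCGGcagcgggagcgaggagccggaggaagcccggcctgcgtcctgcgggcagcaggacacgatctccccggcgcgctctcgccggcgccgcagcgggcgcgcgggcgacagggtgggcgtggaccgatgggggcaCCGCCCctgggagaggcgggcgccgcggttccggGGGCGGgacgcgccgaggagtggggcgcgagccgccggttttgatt
B4GALT5: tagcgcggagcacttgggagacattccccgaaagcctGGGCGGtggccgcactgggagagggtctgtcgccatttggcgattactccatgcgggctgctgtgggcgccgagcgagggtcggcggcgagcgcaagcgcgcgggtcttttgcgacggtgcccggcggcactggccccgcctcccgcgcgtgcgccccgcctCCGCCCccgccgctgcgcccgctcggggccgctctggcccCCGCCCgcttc
ST3GAL5: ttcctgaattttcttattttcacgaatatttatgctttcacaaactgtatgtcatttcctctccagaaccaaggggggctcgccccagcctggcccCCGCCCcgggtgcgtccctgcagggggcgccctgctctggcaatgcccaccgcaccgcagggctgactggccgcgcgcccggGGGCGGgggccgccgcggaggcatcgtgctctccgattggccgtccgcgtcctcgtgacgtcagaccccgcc
ST8SIA1: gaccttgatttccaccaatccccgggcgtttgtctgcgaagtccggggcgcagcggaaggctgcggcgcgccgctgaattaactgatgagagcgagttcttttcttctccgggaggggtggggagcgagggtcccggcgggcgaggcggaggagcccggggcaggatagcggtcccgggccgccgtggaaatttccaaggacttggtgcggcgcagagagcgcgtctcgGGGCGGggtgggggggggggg
They lie at chr9:111896564-111896813 (+) for UGCG, chr20:49713879-49714128 (−) for B4GALT5, chr2:85889035-85889284 (−) for ST3GAL5 and chr12:22334708-22334957 (−) for ST8SIA1. GC boxes, searched on both strands, number 3 in UGCG, 3 in B4GALT5, 2 in ST3GAL5 and 1 in ST8SIA1, and 42.6% of 35116 windows of this length hold at least 1. The 4 windows are also rich in G and C, at 78.4%, 75.6%, 66.0% and 69.2% in that order. The median of all windows is 58.0%, and windows of like content were not compared. The E-boxes CACGTG and CATGTG, both searched on both strands, have no match in the 4 windows, against 6.34% and 9.42% of all windows with a match. These are letter matches, and binding was not analysed here.

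Along the route, B4GALNT1 was the enzyme with the largest fitted change, 9.04-fold lower after siCHD4, while ST3GAL5, the GM3 synthase, was 2.55-fold higher after siCHD3. B4GALT5 and ST3GAL5 were higher in every silenced library than in every siCtrl library of the same table, after either silencing. ST8SIA1, the GD3 synthase, was lower after siCHD4 in every library and was on average higher after siCHD3, where the groups overlapped. Genes were called where the edgeR adjusted p was below 0.05 and the log2 fold change exceeded 1 in size. Since the enzymes were chosen with these values known, their calls and changes are descriptions, with no test. Of the 10 enzymes, 9 passed the filter on low counts in the siCHD4 table. Of these, 0 were called higher (background 4.8% of 17018 genes) and 1 lower (background 1.65%). The filter passed 8 enzymes for siCHD3, of which 1 was called higher (background 3.89% of 16115 genes) and 0 lower (background 4.33%). Among the enzymes that passed the filter, groups did not overlap for 2 higher (background 16.8%) and 3 lower (14.5%) after siCHD4, and for 3 higher (19.7%) and 0 lower (17.4%) after siCHD3. ST8SIA5, outside the filter, did not overlap in either table, higher after siCHD4 and lower after siCHD3. The median log2 fold change of the enzymes tested was 0.14 after siCHD4 (all genes −0.06) and 0.37 after siCHD3 (all genes −0.02). Without siCtrl replicate 3 the siCHD4 median turned to −0.17 (all genes 0.00).

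**Figure D1:**
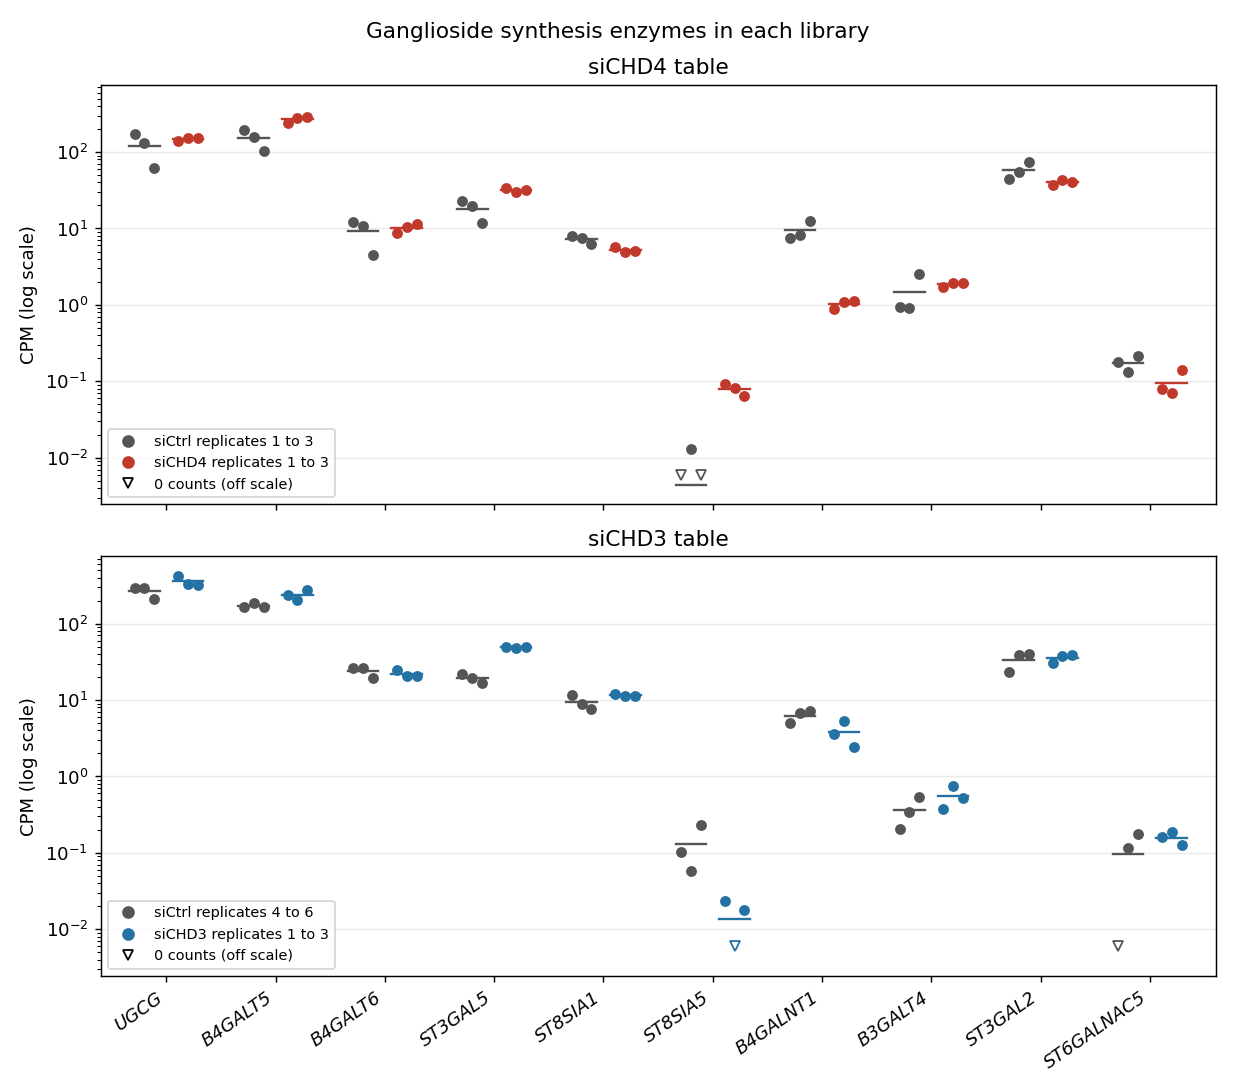
CPM of the 10 enzymes on a log axis in each of the 12 libraries, in pathway order, with the siCHD4 table above and the siCHD3 table below; points are libraries in order of replicate number, bars are group means, and open triangles mark libraries with 0 counts. B4GALNT1 stood between 7.45 and 12.7 CPM in siCtrl replicates 1 to 3 and between 0.875 and 1.14 CPM in siCHD4, and ST3GAL5 between 16.9 and 21.6 CPM in siCtrl replicates 4 to 6 and between 47.3 and 50.02 CPM in siCHD3.

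UGCG (ENSG00000148154; GRCh37 chr9:114659094-114697649, + strand) encodes ceramide glucosyltransferase, which adds glucose to ceramide and so commits it to the glycolipid route. It was 170.0, 129.9 and 61.9 CPM in siCtrl replicates 1 to 3 and 141.2, 153.0 and 154.6 CPM in siCHD4. The siCHD4 libraries lay within the siCtrl range, and siCtrl replicate 3 was the lowest of the 6. The fitted log2 fold change was 0.31 ± 0.35 (SE), and 0.02 ± 0.14 without siCtrl replicate 3. With siCHD3 and its siCtrl it was 294.7, 295.5 and 212.3 CPM in siCtrl, then 425.2, 328.8 and 324.5 CPM in siCHD3. All siCHD3 libraries were above all siCtrl libraries there, by 0.43 ± 0.16, or 1.34-fold.

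B4GALT5 (ENSG00000158470; chr20:48249482-48330415, − strand) and B4GALT6 (ENSG00000118276; chr18:29202209-29265799, − strand) encode the galactosyltransferases that make lactosylceramide from glucosylceramide. B4GALT5 was 191.5, 157.9 and 102.7 CPM in siCtrl and 239.1, 280.6 and 284.5 CPM in siCHD4. The groups did not overlap, and the fitted log2 fold change was 0.83 ± 0.26, or 0.64 ± 0.14 without siCtrl replicate 3. Around siCHD3 it was 167.0, 183.4 and 166.5 CPM in siCtrl and 234.9, 202.8 and 274.1 CPM in siCHD3, again without overlap, with a log2 fold change of 0.46 ± 0.14. B4GALT6 stood far lower in reads than B4GALT5 and did not share its pattern. It was 12.3, 10.8 and 4.52 CPM in siCtrl and 8.79, 10.5 and 11.3 CPM in siCHD4, where the groups overlapped and siCtrl replicate 3 was the lowest library. Its log2 fold change was 0.14 ± 0.36, and −0.17 ± 0.15 without siCtrl replicate 3, so that its direction rested on that library. After siCHD3 it was 24.7, 20.4 and 20.9 CPM against 26.3, 26.4 and 19.5 CPM in siCtrl, overlapping groups with a log2 fold change of −0.13 ± 0.17.

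ST3GAL5 (ENSG00000115525; chr2:86064243-86132322, − strand) encodes GM3 synthase, which sialylates lactosylceramide and opens the ganglioside series. The siCtrl replicates 4 to 6 gave 21.6, 19.3 and 16.9 CPM and the siCHD3 libraries 50.02, 47.3 and 50.01 CPM. Every siCHD3 library was more than double any siCtrl library of that table, and the log2 fold change was 1.35 ± 0.15, between 1.27 and 1.42 when each library was left out in turn. ST3GAL5 was the enzyme called higher after siCHD3. After siCHD4 it was 34.2, 30.2 and 31.7 CPM against 22.7, 19.9 and 11.9 CPM in siCtrl. The groups did not overlap there either, with a log2 fold change of 0.82 ± 0.27 and of 0.61 ± 0.13 without siCtrl replicate 3, both under the fold threshold.

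ST8SIA1 (ENSG00000111728; chr12:22216707-22589975, − strand) encodes GD3 synthase, which adds a sialic acid to GM3. It was 8.05, 7.41 and 6.32 CPM in siCtrl and 5.74, 4.94 and 5.08 CPM in siCHD4. All siCHD4 libraries were below all siCtrl libraries, by a log2 fold change of −0.47 ± 0.20, and −0.54 ± 0.15 without siCtrl replicate 3. Its siCtrl replicates 4 to 6 held 11.5, 8.85 and 7.54 CPM and the siCHD3 libraries 11.95, 11.4 and 11.1 CPM, overlapping groups with a log2 fold change of 0.31 ± 0.19. The difference of its responses, siCHD4 minus siCHD3, was −0.76 ± 0.26 on the log2 scale, and −0.96 to −0.63 when each of the 12 libraries was left out in turn.

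ST8SIA5 (ENSG00000101638; chr18:44247784-44339220, − strand) encodes a sialyltransferase that lengthens the sialic acid chain of complex gangliosides and is known mainly from brain. It was close to absent in these cells, with 0, 1 and 0 reads in siCtrl and 8, 7 and 7 reads in siCHD4. Against that, it had 4, 3 and 9 reads in the siCtrl of siCHD3, whose own libraries had 1, 0 and 1. The counts went up with one silencing and down with the other, and the gene did not pass the filter on low counts in either table. The ratio of silenced to siCtrl counts, scaled by library size, was 16.3 after siCHD4 (exact 95% interval 2.63 to 672) and 0.115 after siCHD3 (0.0129 to 0.491), intervals that cover counting error only.

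B4GALNT1 (ENSG00000135454; chr12:58017192-58027022, − strand) encodes the N-acetylgalactosaminyltransferase that makes GM2 from GM3 and GD2 from GD3. It had 706, 620 and 465 reads in siCtrl and 76, 95 and 122 reads in siCHD4, or 7.45, 8.16 and 12.7 CPM against 0.875, 1.11 and 1.14 CPM. The lowest siCtrl library stood far above the highest siCHD4 library, and the siCHD4 mean was 11.01% of the siCtrl mean. The fitted log2 fold change was −3.18 ± 0.28, it was −2.89 ± 0.18 without siCtrl replicate 3, and between −3.31 and −2.89 when each library was left out in turn. In the siCHD3 table it had 193, 349 and 281 reads in siCtrl and 157, 223 and 134 in siCHD3, or 4.94, 6.73 and 7.16 CPM against 3.64, 5.27 and 2.41 CPM. These groups overlapped, because siCHD3 replicate 2 lay above siCtrl replicate 4. The log2 fold change was −0.74 ± 0.27, under the fold threshold, and −1.03 without siCHD3 replicate 2, which passed both thresholds. The difference of the responses was −2.41 ± 0.40 on the log2 scale. B4GALNT1 shares 27.1% of its exon bases with SLC26A10P on the opposite strand, and the strand used for counting is not stated. SLC26A10P itself had 12 reads in siCtrl and 18 in siCHD4, and 29 in siCtrl and 22 in siCHD3. The part of the shared bases in the B4GALNT1 counts was not tested.

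B3GALT4 (ENSG00000235863; chr6:33244900-33252609, + strand) encodes the galactosyltransferase that extends GM2 and GD2 to GM1 and GD1b. It was 0.95, 0.922 and 2.51 CPM in siCtrl and 1.69, 1.93 and 1.96 CPM in siCHD4. siCtrl replicate 3 was the highest of the 6 libraries and the other siCtrl libraries were the lowest, so the groups overlapped through that library. The log2 fold change was 0.39 ± 0.40, and 1.01 ± 0.21 without siCtrl replicate 3, where it passed both thresholds. In the siCHD3 table it was 0.205, 0.347 and 0.535 CPM in siCtrl and 0.371, 0.756 and 0.522 CPM in siCHD3, overlapping groups with a log2 fold change of 0.60 ± 0.42.

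ST3GAL2 (ENSG00000157350; chr16:70409880-70473140, − strand) encodes a sialyltransferase that sialylates the terminal galactose of GM1 and GD1b. It was 44.9, 54.1 and 74.8 CPM in siCtrl and 36.8, 43.5 and 41.2 CPM in siCHD4. The groups did not overlap, though siCHD4 replicate 2 lay just under siCtrl replicate 1. The log2 fold change was −0.52 ± 0.24, and −0.27 ± 0.14 without siCtrl replicate 3. After siCHD3 it was 30.3, 37.3 and 39.2 CPM against 23.0, 38.5 and 39.8 CPM in siCtrl, overlapping groups with a log2 fold change of 0.07 ± 0.20 whose sign changed without siCtrl replicate 4 (−0.16) or siCHD3 replicate 3 (−0.03).

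ST6GALNAC5 (ENSG00000117069; chr1:77333165-77533231, + strand) encodes a sialyltransferase that makes GD1alpha from GM1b and is known mainly from brain. It had 17, 10 and 8 reads in siCtrl and 7, 6 and 15 reads in siCHD4, and 0, 6 and 7 reads in siCtrl and 7, 8 and 7 in siCHD3. These groups overlapped in both tables. The log2 fold change was −0.81 ± 0.45 after siCHD4, and −0.65 ± 0.53 without siCtrl replicate 3. The scaled count ratio after siCHD3, where it did not pass the filter, was 1.56 (exact 95% interval 0.753 to 3.38).

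siCtrl replicate 3 was on the outer edge of its 6 libraries for 8 of the 10 enzymes, low for the early enzymes of the route and high for the later ones. The share of all genes for which it was outermost was not counted, so this is not shown to be particular to the enzymes. Relative to the mean CPM of siCtrl replicates 1 and 2 it stood at 41.3% for UGCG, 58.8% for B4GALT5, 39.0% for B4GALT6 and 55.8% for ST3GAL5, each the lowest of the 6. It stood at 162% for B4GALNT1, 268% for B3GALT4, 151% for ST3GAL2 and 140% for ST6GALNAC5, each the highest of the 6. Without it, the fitted changes of B4GALT5, ST3GAL5, ST8SIA1, B4GALNT1, ST3GAL2 and ST6GALNAC5 kept their direction, that of UGCG was near 0, and that of B4GALT6 changed sign.

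**Figure D2:**
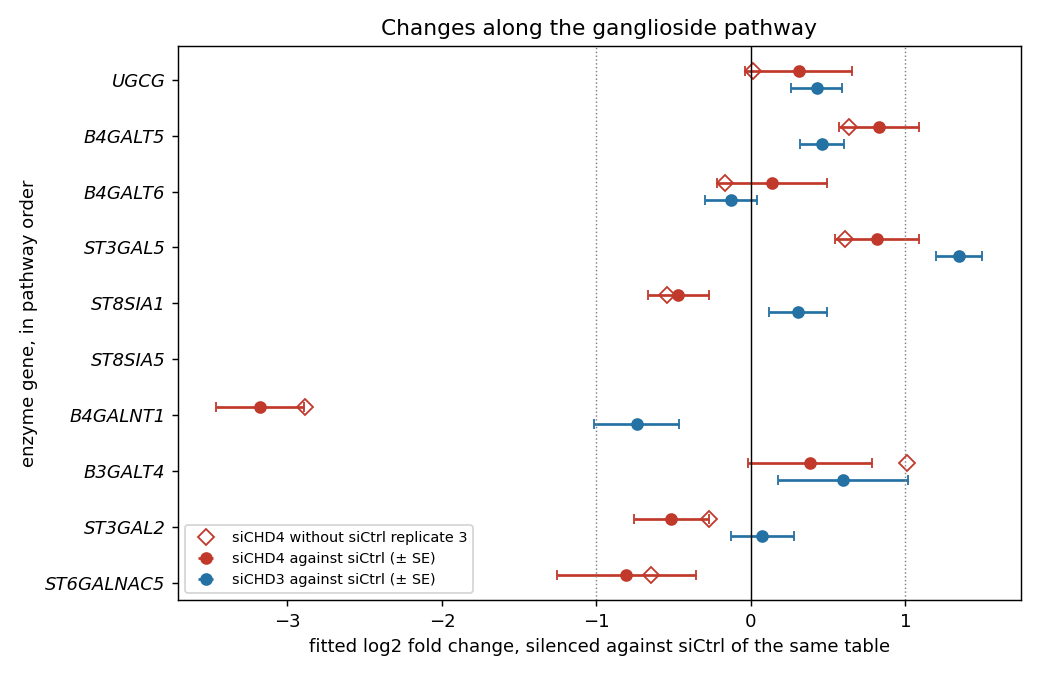
Fitted log2 fold change of each enzyme against the siCtrl libraries of its own table, in pathway order, with bars of 1 SE; filled points are the 2 comparisons, open diamonds the siCHD4 comparison without siCtrl replicate 3, and dotted lines the fold threshold. B4GALNT1 after siCHD4 (−3.18) and ST3GAL5 after siCHD3 (1.35) lie outside the dotted lines; ST8SIA5 was not fitted in either table and ST6GALNAC5 not in the siCHD3 table.

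The balance between enzymes of neighbouring steps, or of the same step for B4GALT6 and B4GALT5, was read as the ratio of their length-normalized signals within each library, whose change between groups does not depend on the gene lengths. GD3 synthase relative to GM3 synthase (ST8SIA1/ST3GAL5) was 0.342, 0.359 and 0.513 in siCtrl and 0.162, 0.158 and 0.155 in siCHD4. For CHD3 silencing the ratio was 0.513, 0.441 and 0.430 in siCtrl and 0.231, 0.232 and 0.215 in siCHD3. In both tables every silenced library was below every siCtrl library, with a mean log2 change of −1.33 after siCHD4 (SD 0.32 in siCtrl and 0.03 in siCHD4) and −1.03 after siCHD3 (SD 0.14 and 0.06). ST3GAL5 was higher after both silencings, whereas ST8SIA1 was lower after siCHD4 and overlapped its siCtrl after siCHD3.

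B4GALNT1 relative to ST3GAL5 was 0.152, 0.190 and 0.494 in siCtrl and 0.0119, 0.0170 and 0.0166 in siCHD4, a mean log2 change of −4.02 (SD 0.90 and 0.29). For CHD3 silencing it was 0.106, 0.161 and 0.196 in siCtrl and 0.0337, 0.0516 and 0.0224 in siCHD3, a mean log2 change of −2.14 (SD 0.45 and 0.60). The groups did not overlap in either table. B4GALNT1 relative to ST8SIA1 was 0.445, 0.529 and 0.963 in siCtrl and 0.0732, 0.107 and 0.107 in siCHD4, a mean log2 change of −2.69. For CHD3 silencing it was 0.207, 0.366 and 0.456 in siCtrl and 0.146, 0.223 and 0.104 in siCHD3, a mean log2 change of −1.11 between groups that overlapped.

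B4GALT6 relative to B4GALT5 was 0.143, 0.152 and 0.0977 in siCtrl and 0.0816, 0.0830 and 0.0882 in siCHD4, a mean log2 change of −0.61. For CHD3 silencing it was 0.350, 0.320 and 0.259 in siCtrl and 0.234, 0.223 and 0.169 in siCHD3, a mean log2 change of −0.57. In both tables every silenced library was below every siCtrl library. The sign of all 8 ratio changes held when each library was left out in turn. Without siCtrl replicate 3 the log2 changes after siCHD4 were −1.15 for ST8SIA1/ST3GAL5, −3.51 for B4GALNT1/ST3GAL5, −2.36 for B4GALNT1/ST8SIA1 and −0.81 for B4GALT6/B4GALT5.

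**Figure D3:**
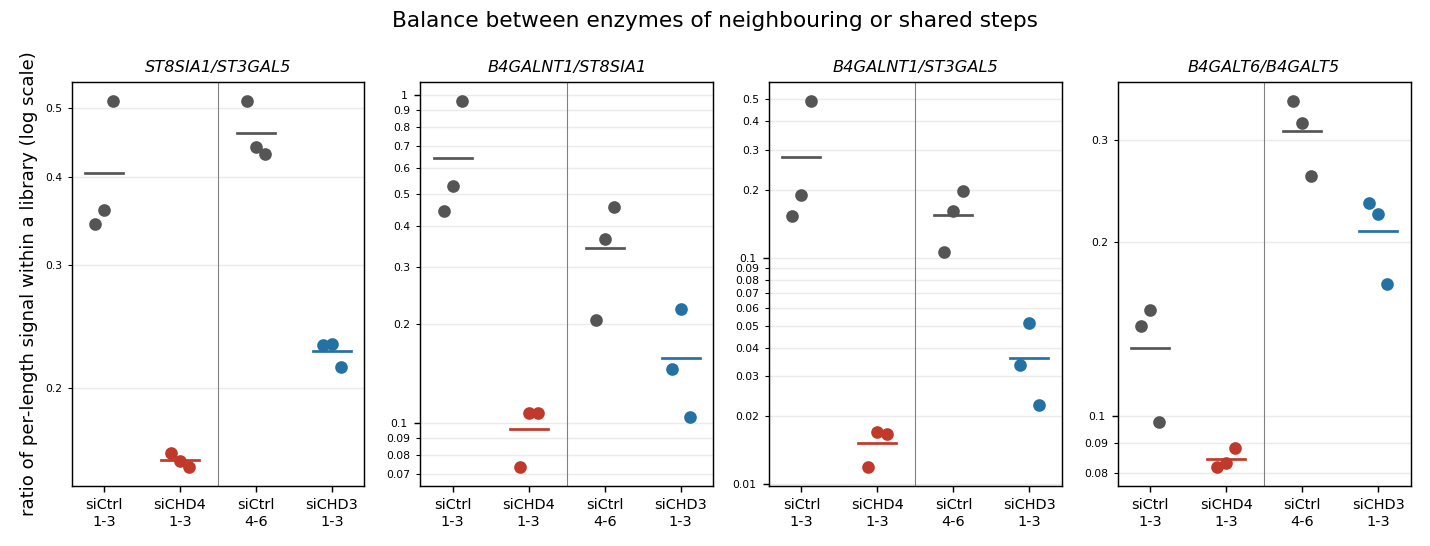
Ratio of length-normalized signal between enzymes of neighbouring steps, or of the same step for B4GALT6/B4GALT5, within each library, on log axes that differ between panels; points are libraries, bars are group means, and the vertical line separates the tables. ST8SIA1/ST3GAL5 was 0.342 to 0.513 in siCtrl replicates 1 to 3 and 0.155 to 0.162 in siCHD4, and 0.430 to 0.513 in siCtrl replicates 4 to 6 and 0.215 to 0.232 in siCHD3; B4GALNT1/ST8SIA1 overlapped between the groups of the siCHD3 table.

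Levels of the enzymes were ordered in siCtrl cells by the deposited normalized signal per kb of gene length. In siCtrl replicates 1 to 3 UGCG led with 15855 ± 7323 (SD, n = 3), followed by ST3GAL2 with 5519 ± 1374, B4GALT5 with 2434 ± 751 and ST3GAL5 with 2269 ± 725. ST8SIA1 stood at 873 ± 116, B4GALNT1 at 543 ± 154, B4GALT6 at 332 ± 152 and B3GALT4 at 65.5 ± 39.6, ahead of ST6GALNAC5 at 17.0 ± 3.96 and ST8SIA5 at 0.234 ± 0.405. B4GALT5 and ST3GAL5, and B4GALNT1 and B4GALT6, overlapped in their ranges over the libraries and were not separated by them. The order in siCtrl replicates 4 to 6 was the same but for B4GALT6 (498 ± 82.5), which stood ahead of B4GALNT1 (210 ± 40.9) there without overlap, and ST3GAL2 and B4GALT5, ST8SIA1 and B4GALT6, and the last 3 enzymes overlapped their neighbours.

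The order depended on the length used. The deposited length of UGCG is 0.581 kb against 4567 exon bases in the GENCODE annotation, and that of ST3GAL5 0.612 kb against 16300, while that of B4GALT5 is 4.722 kb against 4722 bases. The deposited length of B3GALT4 is 1.686 kb in the siCHD4 table and 1.243 kb in the siCHD3 table, so its levels per kb differ in scale between them. Per kb of GENCODE exon bases, B4GALT5 led with 31.9 ± 9.49 CPM per kb in siCtrl replicates 1 to 3, ahead of UGCG with 26.4 ± 11.96 and ST3GAL2 with 5.94 ± 1.57. In siCtrl replicates 4 to 6 UGCG led with 58.6 ± 10.5 CPM per kb, ahead of B4GALT5 with 36.5 ± 2.03 and B4GALT6 with 4.66 ± 0.773. ST6GALNAC5 and ST8SIA5 were at the bottom by either length.

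The difference of the responses, siCHD4 minus siCHD3 with each silencing against its own siCtrl, was fitted over the 12 libraries. Among 8 enzymes fitted, 0 were called higher (background 6.1% of 17357 genes) and 1 lower (background 5.57%). That enzyme was B4GALNT1, at −2.41 ± 0.40 and between −2.65 and −2.12 when each library was left out in turn. The other differences were −0.76 ± 0.26 for ST8SIA1, −0.58 ± 0.33 for ST3GAL2, −0.52 ± 0.31 for ST3GAL5 and 0.38 ± 0.30 for B4GALT5. Those of UGCG (−0.11 ± 0.41), B4GALT6 (0.28 ± 0.42) and B3GALT4 (−0.19 ± 0.60) were within 1 SE of 0 and changed sign when single libraries were left out.

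The genes that supply, compete with or dismantle the route were taken as 6 lists of 72 genes. These lists were also chosen with earlier results of these data known, so their counts and p-values are descriptions, not independent tests. After siCHD4 3 of the 58 tested rose and 0 fell, and after siCHD3 3 of the 56 tested rose and 1 fell, against the backgrounds given above. At an unadjusted p under 0.05 in edgeR 8 of the 58 were higher (background 11.7% of all genes) and 6 lower (10.1%) after siCHD4, where DESeq2 called 4 higher and 0 lower. After siCHD3 19 of the 56 were higher (background 17.5%) and 9 lower (15.5%) at that level, and DESeq2 called 3 higher and 2 lower. The edgeR backgrounds do not apply to the DESeq2 counts, for which no share of all genes is given here. Their median log2 fold change was 0.14 after siCHD4 and 0.12 after siCHD3, beside −0.06 and −0.02 for all genes, and 0.09 after siCHD4 without siCtrl replicate 3. The largest of these changes belonged to GAL3ST1, the cerebroside sulfotransferase that makes sulfatide, which is a glycolipid outside the ganglioside series. It had 3, 1 and 2 reads in siCtrl and 88, 95 and 116 reads in siCHD4 (log2 fold change 5.11 ± 0.43, edgeR adjusted p = 0.00117). The scaled count ratio was 36.9 (exact 95% interval 16.7 to 101). In the siCHD3 table it had 0, 0 and 2 reads in siCtrl and 1, 2 and 1 in siCHD3, and did not pass the filter. Over the 12 libraries its responses were not shown to differ (4.30 ± 1.51, edgeR adjusted p = 0.0786), with values of 1.22 without siCtrl replicate 6 (edgeR adjusted p = 0.850) to 4.97 without siCtrl replicate 5, and a call without siCtrl replicate 3 (4.65, edgeR adjusted p = 0.0468). Of the 9 genes of other glycolipid series, the other 4 tested after siCHD4 and the 3 tested after siCHD3 were not called.

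Of the 17 genes of ceramide synthesis, 14 were tested in each table, and SPTLC3 was the one called by edgeR. DESeq2 also called CERS4 after siCHD4. This ceramide synthase is named after its values were seen, and edgeR fitted it at 1.02 ± 0.35 (edgeR adjusted p = 0.133) and at 1.53 ± 0.15 without siCtrl replicate 3 (edgeR adjusted p = 5.9e-06). After siCHD3 CERS4 was at 0.98 ± 0.23 (edgeR adjusted p = 0.00957), just under the fold threshold. The responses of CERS4 were not shown to differ (0.06 ± 0.42, edgeR adjusted p = 0.946). SPTLC3 encodes a subunit of serine palmitoyltransferase, the enzyme of the first step of sphingolipid synthesis. It was 0.359, 0.434 and 0.382 CPM in siCtrl and 0.714, 0.873 and 0.940 CPM in siCHD4 (1.102 ± 0.27, edgeR adjusted p = 0.0487), a call lost when siCtrl replicate 1 or 2 or any siCHD4 library was left out (largest edgeR adjusted p = 0.254). After siCHD3 it was 0.394, 0.378 and 0.306 CPM against 0.691, 0.501 and 0.841 CPM in siCtrl (−0.91 ± 0.35, edgeR adjusted p = 0.0888). Its responses differed by 2.02 ± 0.39 (edgeR adjusted p = 0.00471). At an unadjusted p under 0.05, 3 of the list were higher and 0 lower after siCHD4 (backgrounds 11.7% and 10.1%). After siCHD3 3 were higher and 5 lower (17.5% and 15.5%). Named after their values were seen, SPTLC2 (0.88 ± 0.14, edgeR adjusted p = 0.000985) and SPTSSA (0.75 ± 0.18, 0.0109) were higher after siCHD3. DEGS1 (−0.77 ± 0.13, 0.00132) and CERS5 (−0.75 ± 0.17, 0.00887) were lower there, all under the fold threshold.

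Of the 3 genes that carry ceramide or glucosylceramide between membranes 0 were called by edgeR or DESeq2 in either table, and after siCHD3 all 3 were higher at an unadjusted p under 0.05 (background 17.5%). After siCHD3 COL4A3BP, the ceramide transfer protein, was 0.83 ± 0.15 on the log2 scale (edgeR adjusted p = 0.00181), GLTP, a glycolipid transfer protein, 0.82 ± 0.15 (0.00239) and PLEKHA8, a glucosylceramide carrier, 0.66 ± 0.17 (0.0187). After siCHD4 the values were 0.41 ± 0.33, −0.14 ± 0.24 and 0.51 ± 0.32, for COL4A3BP, GLTP and PLEKHA8, with edgeR adjusted p of 0.527, 0.784 and 0.407. Without siCtrl replicate 3 they were 0.13 ± 0.14, −0.32 ± 0.13 and 0.24 ± 0.13.

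Among the 15 other sialyltransferases 12 were tested in each table. After siCHD4 edgeR and DESeq2 called 0, with 2 higher and 3 lower at an unadjusted p under 0.05 (backgrounds 11.7% and 10.1%) and a median log2 fold change of −0.38, or −0.21 without siCtrl replicate 3. After siCHD3 edgeR called 2 higher and 0 lower, and DESeq2 called 2 higher and 1 lower. At an unadjusted p under 0.05, 6 were higher and 1 lower (backgrounds 17.5% and 15.5%), with a median of 0.44. ST3GAL3, which sialylates galactose on glycoproteins, was 2.99, 3.37 and 4.87 CPM in siCtrl replicates 4 to 6 and 11.8, 15.7 and 10.3 CPM in siCHD3 (1.75 ± 0.23, edgeR adjusted p = 0.000297). After siCHD4 it was 7.84, 8.49 and 8.29 CPM against 10.1, 12.2 and 20.1 CPM in siCtrl (−0.78 ± 0.28, edgeR adjusted p = 0.153, and −0.42 ± 0.14, edgeR adjusted p = 0.0392, without siCtrl replicate 3, under the fold threshold), and the responses differed by −2.52 ± 0.37 (edgeR adjusted p = 0.000972). ST8SIA6, a sialyltransferase of the family of GD3 synthase, was 0.230, 0.308 and 0.178 CPM in siCtrl replicates 4 to 6 and 0.741, 0.756 and 0.937 CPM in siCHD3 (1.73 ± 0.36, edgeR adjusted p = 0.00464). After siCHD4 it was 0.437, 0.221 and 0.214 CPM against 0.612, 0.461 and 0.327 CPM in siCtrl, overlapping groups (−0.71 ± 0.41, edgeR adjusted p = 0.365, and −0.88 ± 0.38 without siCtrl replicate 3), and the responses differed by −2.45 ± 0.52 (edgeR adjusted p = 0.00798).

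Of the 10 genes for sialic acid and sugar donors, all 10 were tested in each table, and SIAE and CASD1 were called after siCHD3. Both act on the O-acetyl group of sialic acid, which SIAE removes and CASD1 adds. The O-acetylated form of GD3 is a known melanoma antigen. SIAE was 7.21, 6.65 and 6.01 CPM in siCtrl replicates 4 to 6 and 14.1, 12.5 and 13.5 CPM in siCHD3 (1.01 ± 0.17, edgeR adjusted p = 0.00128), a fold that fell under the threshold without siCHD3 replicate 1 or 3 or siCtrl replicate 6 (lowest 0.95). CASD1 was 4.81, 5.07 and 3.24 CPM in siCtrl replicates 4 to 6 and 1.76, 1.84 and 2.198 CPM in siCHD3 (−1.17 ± 0.24, edgeR adjusted p = 0.00451). After siCHD4 SIAE was 0.27 ± 0.25 (edgeR adjusted p = 0.592) and CASD1 0.75 ± 0.38 (0.302), or 0.09 ± 0.14 and 0.44 ± 0.20 without siCtrl replicate 3, and the responses of CASD1 differed by 1.93 ± 0.47 (edgeR adjusted p = 0.0156). SIAE shares 42.4% of its exon bases with genes on the opposite strand, chiefly TBRG1, which makes its counts uncertain where strand was not used.

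Among the 18 genes of lysosomal and membrane breakdown 14 were tested in each table, and GM2A was the one called. GM2A encodes the GM2 activator protein, which presents the product of B4GALNT1 to lysosomal hexosaminidase. It was 81.6, 69.0 and 64.6 CPM in siCtrl and 147.1, 141.2 and 147.9 CPM in siCHD4 (1.02 ± 0.19, edgeR adjusted p = 0.0191). The fold fell under the threshold without siCtrl replicate 2 (0.99) or 3 (0.97), and the edgeR adjusted p reached 0.130 when single siCHD4 libraries were left out. After siCHD3 it was 65.0, 70.9 and 70.3 CPM against 44.7, 41.5 and 45.0 CPM in siCtrl (0.65 ± 0.13, edgeR adjusted p = 0.00424), and the responses were not shown to differ (0.38 on the log2 scale, edgeR adjusted p = 0.239).

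**Figure D4:**
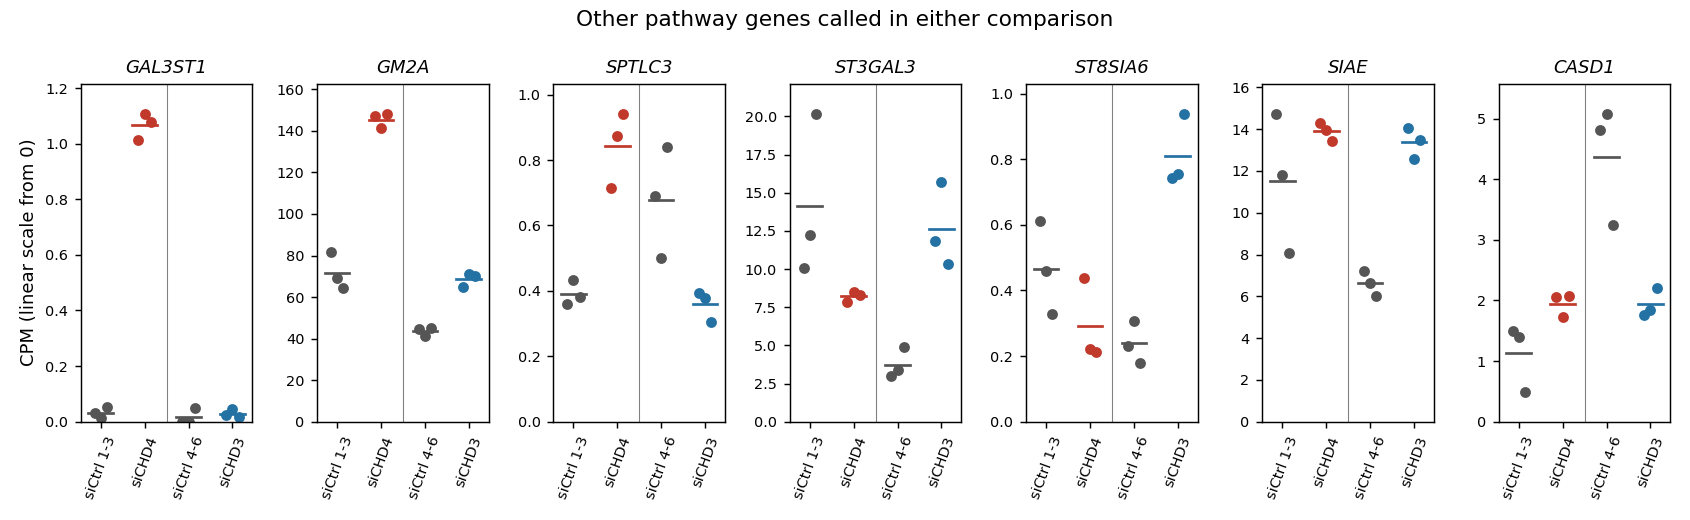
CPM of the 7 other pathway genes called in either comparison, each on its own linear axis from 0; points are libraries, bars are group means, and the vertical line separates the tables. GAL3ST1 stood at 1.01 to 1.11 CPM in siCHD4 and near 0 in the other libraries, and ST3GAL3 at 10.3 to 15.7 CPM in siCHD3 against 2.99 to 4.87 CPM in its siCtrl libraries.

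The genes whose pattern over the 12 libraries was nearest to that of B4GALNT1 were sought among 15293 genes tested in both tables, by the root mean square difference in log2 CPM relative to the siCtrl mean of the own table. DNAAF3, a dynein assembly factor of cilia, was nearest at 0.436, with log2 fold changes of −2.73 ± 0.38 after siCHD4 and −0.60 ± 0.33 after siCHD3. ARHGAP44, a GTPase-activating protein, followed at 0.457 (−3.76 ± 0.38 and −0.21 ± 0.36), and ELOVL3, an elongase of very long-chain fatty acids, at 0.464 (−2.56 ± 0.28 and −0.80 ± 0.31). DNAAF3 shares 27.2% of its exon bases with an antisense gene.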

How the data were processed

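RNA-seq was made from 501Mel cells 72 h after siRNA transfection. Linear cDNA amplification (Ovation RNA-seq V2) started from 6 ng of RNA, and libraries received 8 PCR cycles. The submitters' processing notes list, with no roles, the build hg19, TopHat2 2.0.10, Bowtie2 2.1.0 and 2.2.8, HTSeq, DESeq2, cutadapt 1.10 and CASAVA 1.8.2. For annotation release, filters and strand, the setting is not given in the sources used here. Raw counts per gene, on which every test rests, were deposited by the authors, beside normalized signal (counts over 1 size factor per library) and that signal divided by gene length in kb, used for ratios and levels. The authors' own comparison columns, with deposited log2 fold changes and both raw and adjusted p-values, were not used. The siCHD3 table has 5 rows that name no gene, with 0 counts.

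The 10 enzymes, the 6 lists and the marker lists were chosen with earlier results of these data known. Named were all enzymes, CHD4 and CHD3, every list gene called in either comparison (at most 4 per list) and the 3 genes most like the enzyme of largest change. Genes named outside that rule were chosen after their values were seen. The result of 1 marker list is not reported here. After filterByExpr and TMM scaling, the quasi-likelihood test of edgeR 4.0.16 was run in R 4.3.3, with Benjamini-Hochberg adjustment over 17018 (siCHD4), 16115 (siCHD3) and 17357 (difference of the responses) genes. SE is the log2 fold change over the root of F. The difference was an interaction over 12 libraries. Alternatives were DESeq2 1.42.0, its size factors, no filter, a replicate block and leaving out each library. The fits were tested on simulated data. Count ratios carry exact 95% intervals. Gene coordinates and exon overlaps are from GENCODE v44lift37 on GRCh37.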

Additional observations from a re-analysis of the deposited data

Results flagged for a closer look

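The response to siCHD4 minus the response to siCHD3 passed both thresholds for 1 of 8 ganglioside enzymes and 7 of 61 other pathway genes fitted. That is what brings them here. Of the 61, 3 were higher and 4 lower, beside 6.1% and 5.57% of all 17357 genes, so their number was near the share of all genes. For B4GALNT1 the difference was −2.41 on the log2 scale, a description since the gene was chosen with it known. The lists of other pathway genes were also chosen with earlier results known. SPTLC3 (2.02) and CASD1 (1.93) were on average higher after siCHD4 and lower after siCHD3, and ST3GAL3 (−2.52) and ST8SIA6 (−2.45) the reverse. The calls of these 4 genes held in every fit with 1 library left out.

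The remaining 3 genes were called in the difference but in neither comparison, and were chosen after their values were seen. ST6GAL1, which sialylates N-glycans, was 8.63, 7.81 and 8.42 CPM in siCHD4 against 14.1, 13.3 and 10.1 CPM in siCtrl, and 16.9, 15.6 and 13.4 CPM in siCHD3 against 10.7, 9.597 and 8.59 CPM in siCtrl. Its responses differed by −1.25 ± 0.25 (edgeR adjusted p = 0.00586). ST6GALNAC6, which sialylates gangliosides and glycoproteins, differed by −1.29 ± 0.32 (edgeR adjusted p = 0.0183), which was −0.93 without siCtrl replicate 3 and had an edgeR adjusted p of 0.0626 without siCHD4 replicate 1. It shares 47.0% of its exon bases with another gene on the same strand. ST6GALNAC1, which sialylates O-glycans, differed by 1.96 ± 0.56 (edgeR adjusted p = 0.0337), a call lost without any single library of siCtrl replicates 2, 4, 5 and 6, siCHD4 replicates 1 to 3 and siCHD3 replicates 1 and 2 (largest edgeR adjusted p = 0.0779). It was 4.21, 3.41 and 3.89 CPM in siCHD4 against 2.48, 2.24 and 2.40 CPM in siCtrl. In siCHD3 it was 0.440, 0.591 and 1.89 CPM against 2.56, 2.47 and 2.14 CPM in siCtrl. The fitted log2 fold changes were 0.69 after siCHD4 and −1.26 after siCHD3. The siCHD3 value ranged from −2.23 to −0.91 when each library was left out in turn.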

How the results depend on the processing

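The calls of B4GALNT1 lower after siCHD4, of ST3GAL5 higher after siCHD3 and of B4GALNT1 in the difference held under every alternative run. Over all genes, 817 were called higher and 280 lower after siCHD4. With 1 library left out these ranged from 232 to 1551 and from 29 to 536. The higher count fell to 232, 300 and 340 without siCHD4 replicates 1, 2 and 3 and to 260 without siCtrl replicate 2, and was 1551 without siCtrl replicate 3. The lower count was 29, 38 and 44 without siCHD4 replicates 1, 2 and 3, 52 without siCtrl replicate 2, 536 without siCtrl replicate 1 and 479 without siCtrl replicate 3, and DESeq2 called 457. Enzymes called higher after siCHD4 were 0 to 1 with a library left out (B3GALT4 without siCtrl replicate 3), and other pathway genes called higher 1 (without siCtrl replicate 2 or any siCHD4 library) to 6 (without siCtrl replicate 3). After siCHD3 enzymes called lower were 0 to 1 (B4GALNT1 without siCHD3 replicate 2), and other pathway genes called lower were 2 with DESeq2, 2 with no filter and 1 to 3 with a library left out (3 without siCHD3 replicate 2, 2 without siCHD3 replicate 3 or siCtrl replicate 4). In the difference, 1 enzyme, ST8SIA5, was called higher with no filter, genes called higher ranged from 780 to 1618 (without siCtrl replicate 3) and other pathway genes from 2 to 8 higher (8 without siCtrl replicate 3) and from 3 to 7 lower (7 without siCHD3 replicate 2). Signs changed with single libraries left out for B4GALT6 after siCHD4 (−0.17 to 0.40), ST3GAL2 after siCHD3 (−0.16 to 0.21) and the differences of UGCG (−0.38 to 0.20), B4GALT6 (−0.0097 to 0.51) and B3GALT4 (−0.54 to 0.44). Without a filter SPTLC3 after siCHD4 had an edgeR adjusted p of 0.0778. With GENCODE exon bases as the length, chosen after seeing the data, 6 of the 20 enzyme ranks of the 2 tables stayed the same. The causes were not tested. Depth limits ST8SIA5 and ST6GALNAC5, which had at most 17 reads in any library.

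The replicate numbers 1 to 3 are shared by siCtrl and siCHD4 in the labels, but same-numbered libraries deviated together with correlations of only 0.033, 0.020 and 0.023, so the numbers were not taken as pairs. With the replicate block 491 genes were higher and 111 lower after siCHD4, and 1 other pathway gene was called higher, GM2A and SPTLC3 having edgeR adjusted p of 0.0791 and 0.153. No paired analysis was possible for siCHD3 because its siCtrl libraries carry other numbers.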
